A study of Mus musculus with 6 samples.

Results

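The tiles described here are stretches of 500 bp of mouse autosomes in which only a few CpG cytosines were measured and in which those cytosines were mostly read as unmethylated. Cytosines listed with at least 10 reads in all 6 libraries were placed in consecutive windows of 500 bp. Windows with 3 to 6 such cytosines were kept where the mean level of the 3 Control libraries was under 20%. The level of a tile in a library is its summed methylated reads over its summed coverage. This rule gave 4573 tiles out of 79821 with 3 to 6 cytosines and out of 158836 autosomal tiles with at least 3. The other 75248 tiles of 3 to 6 cytosines, at 20% or above in Control, and 21402 tiles with at least 20 cytosines and a Control level under 20%, called dense tiles below, served for comparison. Because the Control level chose the tiles, their Control levels are a description, and the difference between groups within them was given no test of its own.

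DNA methylation of mouse male germ cells was read by RRBS (reduced representation bisulfite sequencing), in which the genome is cut with a restriction enzyme and cytosines that are not methylated are converted and read as T. Mice of the Control group were compared with mice exposed to CSDS, chronic social defeat stress, in which a mouse is repeatedly attacked by an aggressive conspecific. There were 3 libraries per group. Strain, age, the length of the exposure, the stage of the germ cells and whether a library came from 1 animal or a pool are not given in the sources used here, so the tests measure only the spread between these libraries, which may be technical. Each library listed 2420308 to 3156788 cytosines, with a median coverage of 44 to 50 reads. Among the genes used to check the germ cell label, all 13 measured meiosis genes and 8 of 9 measured genes of the piRNA pathway were under 20% at their starts in Control, as were 1 of 2 measured Sertoli genes and 1 of 2 measured Leydig genes. No immune or blood gene could be measured there, so these starts do not separate germ cells from somatic cells.

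Most CpGs of the mammalian genome are methylated. CpG islands, stretches rich in CpG that often cover gene starts, are the main exception, in germ cells as in somatic cells, and their borders pass into methylated DNA over short distances called shores. Male germ cells set up their methylation before birth and keep gene starts and maternally methylated imprinted regions free of it.

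The sequences below are 8 RefSeq promoters of GRCm38.p6, 250 bases before to 50 bases after a gene start, that hold all listed cytosines of such a tile. They are shown to set the number of CpGs listed in a tile beside the number of CpGs in the promoter. They were chosen after their values were seen. Each is read 5′ to 3′ on the strand of its gene, and capitals mark the CpGs of the tile that were listed in all 6 libraries. CpGs of the promoter outside the tile stay in lower case, listed or not. The first 5 promoters hold many more CpGs than were listed in the tile and the last 3 hold few. Inside the tile the first 5, in the order printed, held 27, 6, 17, 3 and 5 CpGs. Of these 3, 6, 4, 3 and 2 were listed, so at Henmt1 and Ucn none inside the tile was missed. Suv39h2 encodes a histone H3 lysine 9 methyltransferase of the testis, Henmt1 the enzyme that methylates the ends of piRNAs, Iho1 a factor for meiotic DNA breaks, Ucn the stress peptide urocortin and Gdnf a growth factor for spermatogonial stem cells. Pf4 encodes a platelet chemokine, Padi3 a peptidylarginine deiminase of skin and hair, and Grin3b a subunit of the NMDA receptor.
Suv39h2: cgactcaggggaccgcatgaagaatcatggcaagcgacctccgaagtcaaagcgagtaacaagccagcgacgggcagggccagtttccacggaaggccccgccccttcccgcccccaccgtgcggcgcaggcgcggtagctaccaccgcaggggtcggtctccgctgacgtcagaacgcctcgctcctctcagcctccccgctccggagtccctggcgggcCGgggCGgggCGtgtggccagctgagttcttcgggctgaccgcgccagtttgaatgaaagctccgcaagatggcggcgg
Henmt1: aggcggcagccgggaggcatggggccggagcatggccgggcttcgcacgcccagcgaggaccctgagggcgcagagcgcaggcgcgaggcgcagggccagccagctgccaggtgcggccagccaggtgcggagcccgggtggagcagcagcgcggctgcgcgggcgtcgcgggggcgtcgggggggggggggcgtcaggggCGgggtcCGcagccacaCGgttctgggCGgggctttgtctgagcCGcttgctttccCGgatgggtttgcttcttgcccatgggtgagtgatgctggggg
Iho1: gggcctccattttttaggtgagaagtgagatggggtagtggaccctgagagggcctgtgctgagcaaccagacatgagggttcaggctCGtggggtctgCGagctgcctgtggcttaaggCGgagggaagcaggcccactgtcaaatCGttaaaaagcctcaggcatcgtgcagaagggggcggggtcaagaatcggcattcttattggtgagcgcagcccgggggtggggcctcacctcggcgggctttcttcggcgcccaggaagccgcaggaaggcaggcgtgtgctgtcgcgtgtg
Ucn: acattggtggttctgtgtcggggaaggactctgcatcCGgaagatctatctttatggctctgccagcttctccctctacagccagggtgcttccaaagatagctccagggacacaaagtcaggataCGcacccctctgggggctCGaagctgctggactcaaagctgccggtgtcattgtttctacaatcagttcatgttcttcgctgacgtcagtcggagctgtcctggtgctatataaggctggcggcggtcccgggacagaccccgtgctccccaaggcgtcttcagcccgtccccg
Gdnf: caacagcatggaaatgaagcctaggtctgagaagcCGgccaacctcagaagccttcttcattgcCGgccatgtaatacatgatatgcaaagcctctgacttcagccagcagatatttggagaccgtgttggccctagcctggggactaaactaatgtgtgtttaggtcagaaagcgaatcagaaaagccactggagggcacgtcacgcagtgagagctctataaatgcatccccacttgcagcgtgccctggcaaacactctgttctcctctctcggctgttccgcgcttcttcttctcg
Pf4: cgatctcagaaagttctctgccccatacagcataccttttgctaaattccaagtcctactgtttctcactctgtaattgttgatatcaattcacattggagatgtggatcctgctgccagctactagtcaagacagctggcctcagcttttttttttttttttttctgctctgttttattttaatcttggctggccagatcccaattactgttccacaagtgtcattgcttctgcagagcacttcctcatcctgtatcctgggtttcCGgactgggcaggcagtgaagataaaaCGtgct
Padi3: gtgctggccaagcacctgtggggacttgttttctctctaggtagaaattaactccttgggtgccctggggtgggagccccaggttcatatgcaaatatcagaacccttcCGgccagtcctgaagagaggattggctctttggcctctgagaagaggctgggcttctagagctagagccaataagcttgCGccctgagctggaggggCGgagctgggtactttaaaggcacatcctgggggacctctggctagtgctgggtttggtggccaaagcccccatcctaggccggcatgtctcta
Grin3b: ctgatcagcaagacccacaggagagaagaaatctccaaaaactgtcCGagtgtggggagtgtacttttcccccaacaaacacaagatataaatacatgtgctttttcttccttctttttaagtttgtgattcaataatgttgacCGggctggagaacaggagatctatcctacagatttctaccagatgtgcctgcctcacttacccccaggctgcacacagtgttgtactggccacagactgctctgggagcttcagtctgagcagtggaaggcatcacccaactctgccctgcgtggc

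The Suv39h2 promoter (chr2:3474937-3475236, minus strand) holds 33 CpGs, of which 3 were listed in the tile. Its tile stood at 11.6%, 5.15% and 6.30% in the Control libraries and at 8.43%, 2.17% and 7.07% in the CSDS libraries, and the groups overlapped. In the Henmt1 promoter (chr3:108940307-108940606, plus strand) 6 of 31 CpGs lay in the tile and all 6 were listed. Control levels were 23.8%, 4.76% and 6.25% and CSDS levels 14.8%, 3.18% and 1.87%. One Control library was well above the other two there. Iho1 (chr9:108431777-108432076, minus strand) had 4 of 17 CpGs listed and read 4.44%, 3.23% and 3.28% in Control and 11.1%, 1.94% and 18.5% in CSDS, where the spread between libraries was wider. At the other end, Pf4 (chr5:90772185-90772484, plus strand) holds 3 CpGs, 2 of them listed, and read 10.9%, 13.8% and 15% in Control and 10.3%, 10.05% and 5.10% in CSDS. All CSDS libraries were below all Control libraries at Pf4, though the gap to the nearest Control library was under 1 point. Padi3 (chr4:140810599-140810898, minus strand), with 4 CpGs, and Grin3b (chr10:79970474-79970773, plus strand), with 3, had group means of 9.45% and 14.1% in Control and of 10.2% and 12.0% in CSDS.

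Few of the promoters that hold such tiles were poor in CpG. The listed cytosines of 402 of the 4573 tiles lay within a RefSeq promoter. Those promoters held a median of 17 CpGs per 300 bases, with quartiles of 12 and 24, while a median of 3 CpGs were listed in the tile. A promoter can reach beyond the tile, so these counts cover unlike stretches. In 382 of the 402 (95.02%) the promoter held more than 6 CpGs, and in 12 it held 5 or fewer. Counting only the promoter bases that fall inside the tile, which leave part of the tile unread, 249 (61.9%) held more than 6, against 41.5% of the tiles at 20% or above. The same count over 364 promoter tiles at 20% or above gave a median of 7 CpGs, and all 31396 autosomal promoters of the table had a median of 7. Median GC content was 60.3% in the low tiles' promoters against 54.2%, and the ratio of observed to expected CpGs was 0.656 against 0.352. In most of these 402 tiles a low number of listed cytosines did not mean few CpGs in the promoter, so all the tiles are called sparsely listed here. Outside promoters the CpG number was not counted, since no genome sequence was used here. Whether the tiles there are poor in CpG is thus not known.

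**Figure D1:**
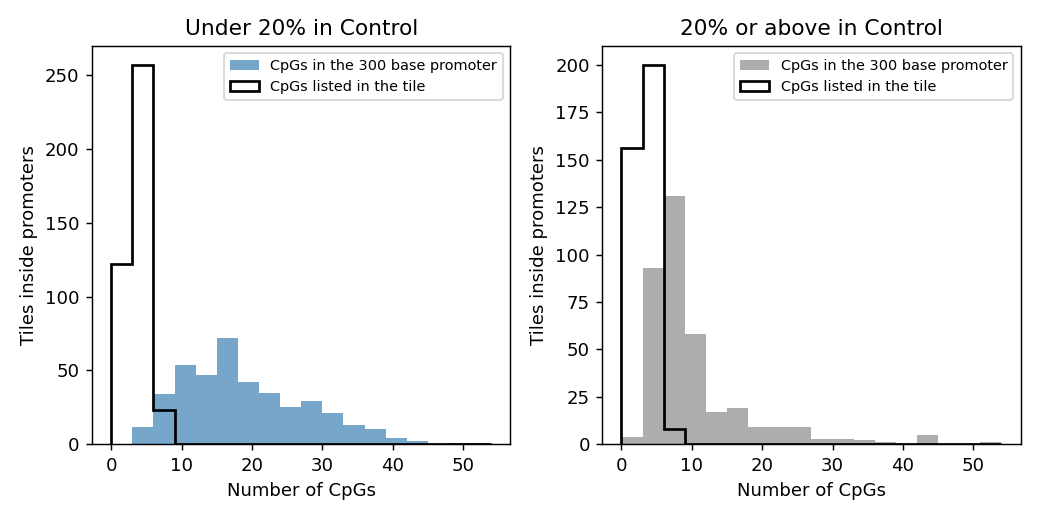
Number of CpGs in the 300 base promoter (filled) and number of CpGs of the tile listed in all libraries (black outline) for tiles whose listed cytosines lie in a promoter, under 20% (left, 402 tiles) and at 20% or above in Control (right, 364 tiles). The left promoters had a median of 17 CpGs and the right ones 7, with a median of 3 listed in the tile in both. A promoter can reach beyond the tile.

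The share of promoter tiles that were low rose with the CpG number of the promoter. With 0 to 3 CpGs, 2 of 22 tiles of 3 to 6 listed cytosines were under 20% in Control (9.09%), and with 7 to 9 CpGs 43 of 161 were (26.7%). With 10 to 14 CpGs the share was 63.6%, and with 20 or more it was 80.8% (156 of 193). What was listed also depended on the coverage limit. Of the 4573 tiles, 2109 (46.1%) had more than 6 cytosines listed in at least 1 library, against 23.0% of the other tiles of 3 to 6, and 462 had 20 or more. The listed cytosines of a low tile spanned a median of 45 bp, against 75 bp in the others. Coverage summed over the cytosines of a tile had a median of 242.5 per library, against 226.5. In this sum a read counts once for each cytosine it covers, so the number of reads is smaller.

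Short sequence motifs were counted on both strands of the same promoters. GGGCGG, the box of SP factors, which bind many CpG island promoters, occurred in 252 of the 400 distinct promoters with a low tile (63.0%), in 25.6% of 359 with another sparsely listed tile and in 35.98% of all promoters. CCGGAAG, the core of sites for ETS factors, occurred in 20.5%, 18.9% and 9.004%. This motif contains CCGG, the site cut by MspI, the enzyme commonly used for this assay, and tiles of both kinds are sampled next to that site. CCAAT was found in 38.5%, 32.9% and 37.3%. TATAAA was in 7% of promoters with a low tile, 7.24% of those with another sparsely listed tile and 13.6% of all. TGACGTCA, the cyclic AMP response element, was in 3.75%, 1.67% and 1.83%, and the Suv39h2 and Ucn promoters printed above are among those that hold the bases of it. A match describes letters and not binding.

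Within the low tiles, single cytosines at CCGG stood apart from all others. Inside promoters, where sequence was known, 209 of 216 CpGs at CCGG listed on both strands in low tiles (96.8%) were above 50% on one strand and under 20% on the other in Control. In CSDS the count was 208 (96.3%). Among 448 other CpGs of low tiles the count was 1 (0.223%) in Control and 0 in CSDS. The same contrast was present in dense tiles, with 7665 of 15872 CCGG CpGs (48.3%) and 1 of 83006 other CpGs. In the sparsely listed tiles at 20% or above it was 207 of 541 (38.3%) and 0 of 288. The high strand had a median of 75 reads in low tiles and the low strand 229. Since a low tile must have a low summed level, a CCGG CpG that was high on both strands could hardly occur in it, so the shares of the 3 kinds of tile are not comparable with each other. The cause of the strand difference was not tested.

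**Figure D2:**
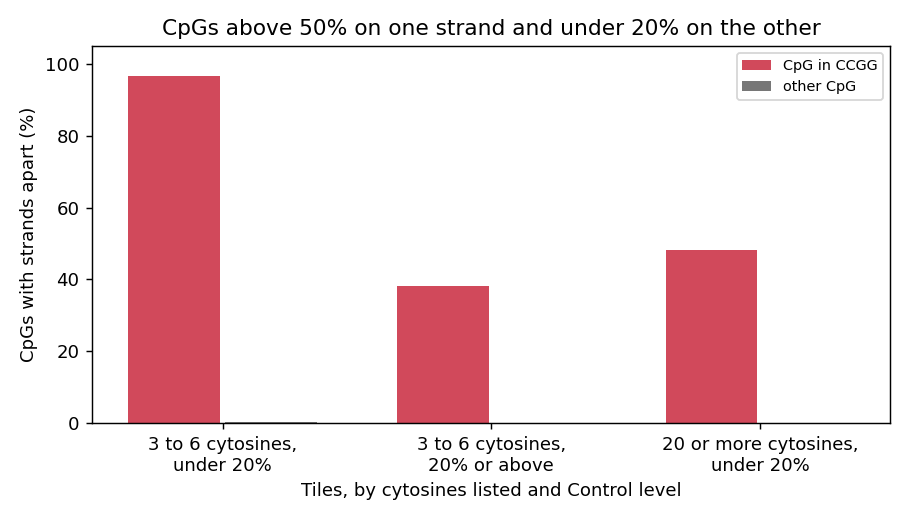
Share of CpGs listed on both strands that were above 50% on one strand and under 20% on the other in Control, for CpGs at CCGG and for other CpGs of the same tiles, inside RefSeq promoters. The share was 96.8% against 0.223% in low tiles of 3 to 6 cytosines and 48.3% against 0.00120% in dense low tiles.

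The Ucn and Gdnf promoters show the pattern in single tiles. At Ucn (chr5:31138846-31139145, minus strand) 1 of 5 listed cytosines, at CCGG, read 82.1% in Control while no other exceeded 13.1%. At Gdnf (chr15:7809798-7810097, plus strand) both listed CpGs are at CCGG, and 1 of the 3 cytosines read 95.7% with the others at 7.83% or less. The tile means of these genes, 15.6% and 19.4% in Control, thus held 1 high and several low cytosines each. Over all 4573 tiles, 1827 (40.0%) held at least 1 cytosine above 50%, and in 1826 (39.9%) every cytosine was under 20%. CpGs listed on both strands differed by more than 20 points between strands at 32.3% of 6262 CpGs, and at 16.9% of those with at least 20 reads on each strand. In the other tiles of 3 to 6 cytosines the share was 13.2% of all such CpGs, and in dense tiles 11.1%. With at least 20 reads on each strand it was 9.78% and 6.02%.

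Leaving out CCGG lowered the levels more than it changed the comparison of the groups. Of 403 low tiles whose cytosines all lay in promoters, counted over adjoining promoters, 399 held a CpG outside CCGG. For these the median Control level was 12.6% with all cytosines and 8.24% without those at CCGG. The CSDS median went from 8.82% to 4.91%, and the median difference from −3.10 to −3.01 points. Of 252 promoter tiles at 20% or above that held a CpG outside CCGG, 74 (29.4%) fell under 20% once CCGG was left out, so this choice decides part of the membership. Summed over cytosines of low tiles in promoters, CCGG read 23.5% ± 0.376 (SD, n = 3) in Control and 19.5% ± 2.73 (n = 3) in CSDS. Other CpGs read 8.60%, 8.09% and 8.49% in the Control libraries against 8.16%, 3.77% and 4.45% in the CSDS libraries.

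Nearness to genes set the low tiles apart from the other sparsely listed tiles, a property that the rule did not use. Within 1 kb of an end of a protein-coding gene lay 1852 of them (40.5%), against 5.33% of the other tiles of 3 to 6 cytosines and 71.4% of dense tiles. A further 1304 (28.5%) lay inside a protein-coding gene and 1417 (31.0%) between such genes. The annotation used gives gene bounds without exons, so exon, intron and untranslated region were not told apart. The RefSeq starts used here leave out chromosome 18, whose 137 low tiles have no distance, and some genes of other autosomes. The tile inside Crh, for example, was given a nearest start 259966 bp away, so the distances are upper limits. Of the 4436 tiles with a distance, 1819 (41.0%) lay within 1 kb of a RefSeq start, 756 upstream and 1063 downstream. The median distance was 2521.5 bp, against 24883 bp in the other sparsely listed tiles and 374 bp in dense tiles.

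In the 500 bp before a start, 553 of 1232 tiles of 3 to 6 cytosines (44.9%) were low by the Control rule, and in the 500 bp after it 703 of 1568 (44.8%). The share was 13.2% between 1 and 1.5 kb upstream and 16.2% at the same distance downstream. Beyond 50 kb from any start used it was 2.68%. Selecting by the CSDS level gave 53.9% and 53.3% beside the start and 3.93% beyond 50 kb, so the profile had its peak at the start in both groups of libraries.

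**Figure D3:**
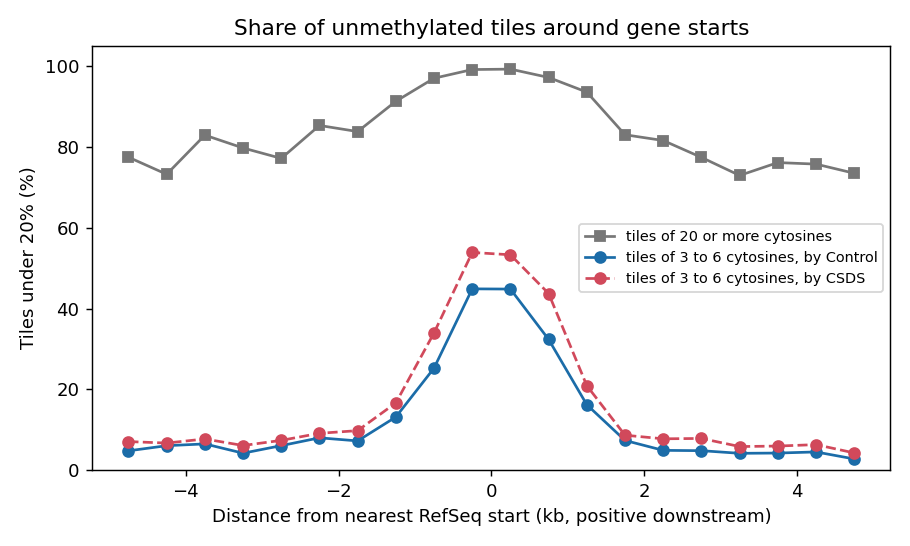
Percent of tiles under 20% in bins of 500 bp around the nearest RefSeq start, for tiles of 3 to 6 cytosines by the Control level (blue) and by the CSDS level (red, dashed), and for tiles of 20 or more cytosines by the Control level (grey). Beside the start 44.9% and 44.8% of the sparsely listed tiles were low in Control, and 99.2% and 99.3% of the dense ones.

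Many low tiles were nonetheless far from any start used: 1969 of the 4436 (44.4%) were more than 5 kb away. Among them, 376 (19.1%) lay within 1 kb of an end of a protein-coding gene, so some may be near a start that is missing here. The 1969 distal tiles had medians of 14.3%, 14.3% and 13.97% in the Control libraries and of 14.4%, 9.72% and 10% in the CSDS libraries. Tiles within 1 kb of a start had 13.1%, 13.3% and 13.3% in Control and 12.3%, 7.46% and 8.26% in CSDS. Being low in all 3 CSDS libraries was seen in 76.3% of the distal tiles and in 88.7% of those at starts. A dense low tile lay directly beside 20.6% of the distal tiles and beside 59.0% of those at starts. Transfer RNA genes, short genes with promoters inside the transcribed sequence, were among the other neighbours. Of 59 tiles of 3 to 6 cytosines within 1 kb of a tRNA gene, 29 (49.2%) were low, 25 of them under 20% in all CSDS libraries, and 5 of the 29 were also within 1 kb of a protein-coding gene. For miRNA genes the share was 29 of 179 (16.2%), for long non-coding RNA genes 528 of 3085 (17.1%) and for pseudogenes 116 of 1125 (10.3%). By chromosome, 4.55% (chromosome 1) to 6.89% (chromosome 13) of the sparsely listed tiles were low.

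Where flanks were measured, low tiles rarely stood alone. The tiles directly beside them had a median Control level of 13.6% on either side, against 92.5% and 92.6% beside the other sparsely listed tiles. Of the 4573, 1744 (38.1%) directly adjoined a dense low tile, against 1.38% of the others. Of 3969 low tiles with any measured flank within 2 kb, 3163 (79.7%) had a flank under 20%, against 11.4% of the others. The median of the flanks rose to 25.5% at 2 kb on the side of lower coordinates and to 18.97% on the other side, where the upper quartile reached 88.9%. The flanks are other cytosines than those the rule used, but come from the same libraries.

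**Figure D4:**
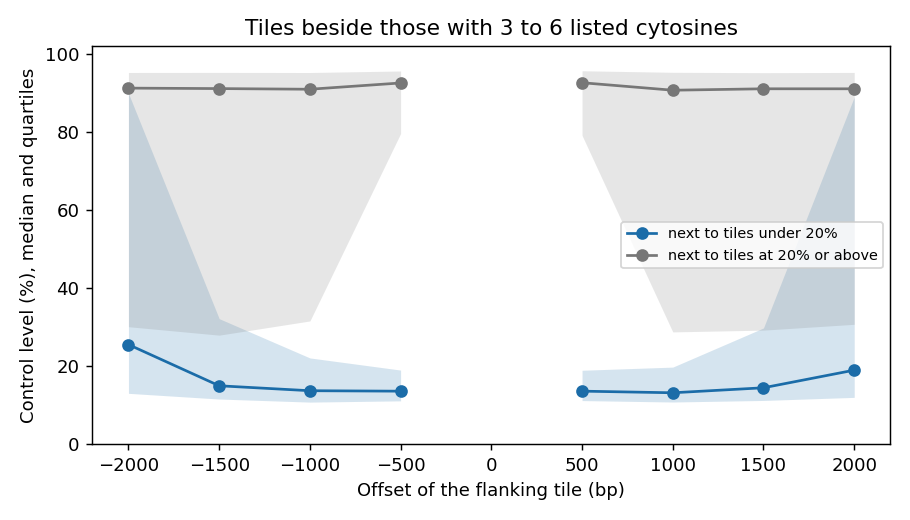
Median Control level (points) and quartiles (shading) of the tiles up to 2 kb on either side of tiles with 3 to 6 cytosines, in percent, for low tiles (blue) and for those at 20% or above (grey). Beside low tiles the median was 13.6% at 500 bp and 25.5% and 18.97% at 2 kb, and beside the others it was 92.5% and 92.6% at 500 bp.

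Only 21 low tiles lay between measured flanks that were both at 50% or above, which is 0.459% of all (95% Clopper-Pearson interval 0.284% to 0.701%, for counting error only) and 1.72% of the 1224 with both flanks measured. With flanks at 80% or above 7 remained. The deepest dip was at Zfp719 (chr7:43579501-43580000), a zinc finger gene, 318 bp past its start, with flanks at 90.3% and 97.8%. Its tile read 6.52%, 0% and 8.70% in the Control libraries against 16.5%, 3.82% and 1.83% in the CSDS libraries. Coverage summed over its 3 cytosines was only 34 to 131 a library. A second isolated tile lay at chr15:84418001-84418500 inside Shisal1, between flanks at 98.9% and 96.8%. It read 19.3%, 14.98% and 14.3% in Control and 19.5%, 13.9% and 14.8% in CSDS, so all 6 libraries gave about the same level. Inside Sdc3, which encodes the heparan sulfate proteoglycan syndecan 3, the tile chr4:130802001-130802500 read 14.2%, 14.2% and 15.8% in Control and 15.2%, 11.8% and 13.7% in CSDS between flanks at 79.4% and 96.4%. At chr11:116905501-116906000, 13254 bp from Mgat5b, the levels were 10.9%, 9.24% and 17.7% in Control and 3.76%, 3.09% and 5.10% in CSDS, and the groups did not overlap.

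The low level was kept in libraries that the rule had not used. All 3 CSDS libraries were under 20% at 3777 of the 4573 tiles (82.6%, 95% Clopper-Pearson interval 81.5% to 83.7%, for counting error only). The share was 0.880% in the other tiles of 3 to 6 cytosines and 99.3% in dense tiles. The CSDS mean was at 20% or above at 130 tiles, and every CSDS library was at 18. Among the Control libraries themselves, whose mean chose the tiles, 2990 tiles (65.4%) were under 20% in all 3. Singly, 87.1%, 85.5% and 88.0% of the tiles were under 20% in the Control libraries. In the CSDS libraries 85.4%, 96.9% and 96.9% were. Dense tiles too read lower in CSDS replicates 2 and 3, at medians of 6.20% and 6.80%, against 10.8% in replicate 1. A fixed limit of 20% is thus easier to meet in those libraries. The Control mean was under 10% at 1115 tiles and under 5% at 145. Across the threshold the levels were continuous: the tile at Vwce averaged 19.99% in Control and that at Ttc7b 19.99%, and just outside stood Pif1 at 20.01% and Cldn18 at 20.01%.

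Control libraries had median levels of 13.7%, 13.7% and 13.6% over the low tiles, and CSDS libraries of 13.3%, 8.70% and 9.13%. The CSDS libraries of replicates 2 and 3 were thus lower, and that of replicate 1 was close to Control. Per group this was 13.7% ± 0.0390 (SD, n = 3) in Control and 10.4% ± 2.56 (n = 3) in CSDS. The median of the difference per tile was −2.84 points, with 3716 of 4573 tiles (81.3%) lower in CSDS, beside −1.81 points over all 158836 tiles, −1.03 in the other tiles of 3 to 6 and −3.58 in dense tiles. Against the Control mean, CSDS replicate 1 differed by −0.188 points, replicate 2 by −4.56 and replicate 3 by −4.27. Without CSDS replicate 1 the median difference of the same tiles was −4.23 points, and without CSDS replicate 2 it was −2.09.

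Selection by a low Control level favours tiles that happened to read low in Control. Among tiles chosen by the mean of all 6 libraries the median difference was −3.34 points, and among those chosen by the CSDS mean it was −3.72.

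The share of mitochondrial CpG cytosines read as C moved with these levels. The medians of that share, each over only 27 cytosines, were 8.90%, 8.84% and 10.04% in the Control libraries against 8.50%, 4.41% and 4.53% in the CSDS libraries. When each library's levels were scaled so that its mitochondrial median became 0, the medians of the low tiles were 5.24%, 5.35% and 3.999% in Control and 5.29%, 4.50% and 4.82% in CSDS. The group means were then 4.86% ± 0.750 and 4.87% ± 0.396 (SD, n = 3 each), a difference of 0.00432 points. The median difference over the same 4573 tiles was 0.476 points after scaling, between 0.179 and 0.833 on leaving out single libraries. Of these tiles 43.5% were then lower in CSDS, against 58.6% of all tiles. Selection by a low Control level acts on these values too.

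**Figure D5:**
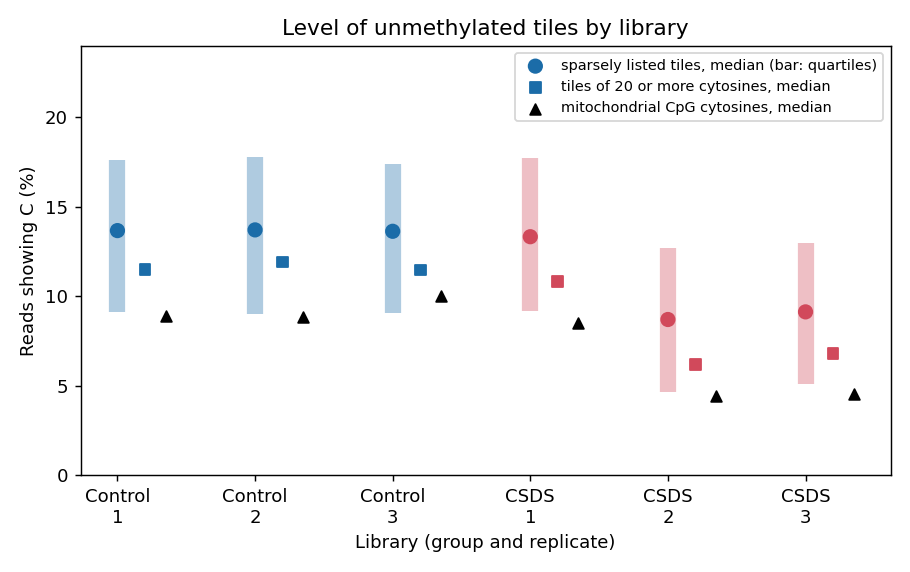
Median level of the low tiles of 3 to 6 cytosines (circles, bars from the first to the third quartile), of dense low tiles (squares) and of mitochondrial CpG cytosines (triangles) in each library, in percent of reads showing C. The low tiles were at 13.7%, 13.7% and 13.6% in Control and 13.3%, 8.70% and 9.13% in CSDS, and the triangles were low in the same CSDS libraries, at 4.41% and 4.53%.

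No tile was called between the groups. In a quasi-binomial F test over all 158836 tiles, with Benjamini-Hochberg adjustment and a difference of at least 10 points, 0% of all tiles were called, and the smallest adjusted p of a low tile was 0.179. At an unadjusted p under 0.05 stood 409 low tiles that were lower in CSDS, against 15.3% of all tiles, and 11 that were higher, against 0.385% of all. Together these 420 were 9.18% of the low tiles, below the 15.7% of all tiles. The count moved with single libraries: it was 1024 (22.4%, against 26.1% of all tiles) without CSDS replicate 1 and 207 (4.53%, against 9.72%) without CSDS replicate 2. It was 228 without CSDS replicate 3, 243 without Control replicate 1 and 271 without Control replicate 3, where 9.23%, 11.4% and 11.7% of all tiles passed. limma on logit levels also called 0, with 578 low tiles (12.6%) at an unadjusted p under 0.05 against 9.24% of all tiles. Groups without overlap, lower in CSDS, were found at 740 low tiles (16.2%) and at 16.3% of all. Groups without overlap and higher in CSDS were found at 41 (0.897%) and at 1.82% of all. After the mitochondrial scaling, separate groups were found lower in CSDS at 165 low tiles (3.61%), against 7.48% of all tiles. Higher in CSDS they were found at 282 (6.17%), against 3.5% of all. The rule favours tiles that read low in Control and with them the second count, so no direction is drawn from these. Without CSDS replicate 1 the test called 2279 tiles, 116 of them low tiles, all lower in CSDS (2.54% of the low tiles, against 1.41% of all tiles called lower and 0.0227% called higher).

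Among low tiles lower in CSDS with separate groups, the smallest p-values were at Muc1, Pde3b, Rgs6, Zkscan16, Ccdc174 and Lpl, each with an adjusted p of 0.179 in the quasi-binomial F test. Upstream of Muc1, which encodes a mucin of epithelial surfaces, the tile chr3:89228001-89228500 read 12.8%, 21.1% and 22.4% in Control and 4.04%, 2.20% and 2.75% in CSDS. Its difference of −15.8 points was −13.5 after the mitochondrial scaling. At the start of Rgs6 (chr12:82617501-82618000), a regulator of G protein signalling, the levels were 20.5%, 14.6% and 5.22% in Control and 3.50%, 1.11% and 2.07% in CSDS. The range of the Control libraries there was wider than the difference of −11.2 points between the group means. Lpl (chr8:68881001-68881500), which encodes lipoprotein lipase, read 11.3%, 11.7% and 22.4% in Control and 2.25%, 0.641% and 0.833% in CSDS. Its summed coverage was 58 to 312 a library. In the tile inside Pde3b (chr7:114416501-114417000), a phosphodiesterase, the levels were 12.7%, 8.66% and 14.7% in Control and 5.44%, 3.49% and 2.90% in CSDS. Summed coverage there was 439 to 967.

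Tiles higher in CSDS with separate groups had larger p-values. Inside Pdzrn4 (chr15:92767501-92768000) the Control libraries read 10%, 8.89% and 11.9% and the CSDS libraries 34.7%, 22.2% and 25%. The flank of that tile stood at 28.6% in Control. Syne1 (chr10:5491001-5491500), which encodes the nuclear envelope protein nesprin 1, read 11.3%, 8.28% and 16.4% in Control and 20.3%, 26.8% and 19.8% in CSDS. At Thoc5 (chr11:4900001-4900500), a subunit of the mRNA export complex THO, the values were 3.61%, 10.6% and 17.7% against 26.9%, 21.8% and 19.3%. Their adjusted p in the quasi-binomial F test was 0.217, 0.241 and 0.253. Csgalnact1 (chr8:68421001-68421500), an enzyme of chondroitin sulfate synthesis, had the highest CSDS mean of all low tiles. Its 3 cytosines read 26.7%, 6.06% and 0% in Control and 67.5%, 33.2% and 27.4% in CSDS, on a summed coverage of 40 to 196. The adjusted p in the quasi-binomial F test was 0.380.

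Some tiles entered the set although 1 Control library was high. Inside Prr36 (chr8:4213501-4214000) the Control libraries read 1.08%, 1.30% and 53.5%, and the CSDS libraries 0.719%, 7.06% and 3.86%. At the start of Tmem106a (chr11:101582001-101582500) they read 40.7%, 0% and 5.29% in Control, against 9.35%, 1.71% and 3.50% in CSDS. For Sash1 (chr10:8886501-8887000) the Control values were 5.88%, 40.2% and 0% and the CSDS values 5.56%, 1.16% and 0%. A different Control replicate was the high one in each of these 3 tiles. The correlation between libraries over the low tiles, which by the rule span a narrow range, was 0.209 to 0.630, against 0.989 to 0.992 over all tiles.

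Gene lists were matched by an end within 1 kb of a tile, and a gene without a tile of 3 to 6 cytosines could not count. Of 28 genes of spermiogenesis and sperm structure, 8 had a tile of 3 to 6 cytosines. A low one was found at 1, Odf2, which encodes a protein of the outer dense fibres of the sperm tail. It read 23.6%, 17.5% and 17.8% in Control and 14.1%, 11.4% and 14.9% in CSDS, on a summed coverage of 394 to 532. The groups did not overlap. Of 26 meiosis genes, 8 had a tile of 3 to 6 cytosines and 3 had a low one. Mybl1, the transcription factor A-MYB that drives meiotic genes and piRNA precursors, read 9.64%, 26.7% and 19.5% in Control and 5.61%, 4.02% and 2.31% in CSDS, and its groups did not overlap. Sycp3, a part of the synaptonemal complex, read 10.5%, 35.1% and 7.25% against 20.6%, 4.11% and 19.6%, and Hspa2, a chaperone of spermatocytes, 19.1%, 10.2% and 13.3% against 20.7%, 11.2% and 8.77%. Both overlapped between groups. Of 17 piRNA pathway genes found, 4 had a tile of 3 to 6 cytosines. Tdrd1, a Tudor protein, was the single gene counted, with Control levels of 15.7%, 12.6% and 8.63% and CSDS levels of 15.1%, 11.8% and 5.63%. Henmt1 was not counted, since the tile shown above lies just over 1 kb from its end in the gene table.

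Of 26 imprinted genes 6 had a tile of 3 to 6 cytosines and 4 had a low one: Cdkn1c, Inpp5f, Meg3 and Peg13. Inpp5f read 8%, 4.32% and 3.66% in Control and 9.77%, 3.42% and 10.3% in CSDS, and the tile at Peg13 7.84%, 7.51% and 12.3% against 6.17%, 0% and 13.3%. The tile 43 bp past the start of Meg3, a maternally expressed non-coding RNA, read 12.3%, 11.6% and 17.7% against 11.1%, 10.6% and 20.9%. The groups overlapped at these 3 tiles. Among 51 developmental transcription factors 10 had a tile of 3 to 6 cytosines and 7 had a low one: Foxa1, Gata3, Gata5, Hoxb1, Neurog1, Pax6 and Tbx5. Of these 7 tiles 6 were lower in CSDS, 1 with separate groups (16.3% over all tiles), and the median difference was −2.61 points. After the mitochondrial scaling 3 were lower and the median difference was 0.539 points. Of 26 broadly expressed genes 6 had a tile of 3 to 6 cytosines. Chmp2a, Psmb2, Rpl13a and Sdha had 5 low tiles, with a median difference of −1.86 points, which turned to 1.61 after the scaling.

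On the list of 30 stress axis and neuronal genes 11 had a tile of 3 to 6 cytosines. It gave 6 low tiles at 5 genes, with 5 tiles lower in CSDS and a median difference of −6.23 points, or 4 tiles and −3.12 points after the scaling. Over all low tiles 81.3% were lower, with a median difference of −2.84 points, or 43.5% and 0.476 points after the scaling. Over all tiles 73.8% were lower, or 58.6% after the scaling. Separate groups were seen at 1 of the 6 and an unadjusted p under 0.05 at 2, where 16.3% and 15.7% of all tiles had these. Crh, the hormone that starts the stress axis, read 8.57%, 9.43% and 20.8% in Control and 11.3%, 5.26% and 8.33% in CSDS. Ntrk2, the receptor of BDNF, read 11.4%, 8.94% and 26.1% against 9.76%, 1.20% and 1.19%. The serotonin receptor gene Htr1a read 1.43%, 9.65% and 2.92% against 6.11%, 2.50% and 1.69%, and the dopamine receptor gene Drd1 18.4%, 11.6% and 10.1% against 13.9%, 15.9% and 21.1%. In these 4 tiles the groups overlapped, and none was called. Of the somatic lists, Cldn11 and Wt1 among 10 Sertoli markers had a low tile, where 4 had a tile of 3 to 6 cytosines. None of 8 Leydig and 10 immune or blood markers had a low tile, but only 2 on each list had a tile of 3 to 6 cytosines. Dense low tiles were found at 14 of the 26 meiosis genes, 41 of the 51 developmental factors and 15 of the 30 stress and neuronal genes.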

How the data were processed

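RRBS libraries of male germ cells, 3 Control and 3 CSDS by title, were compared. Trim Galore 0.5.0 and Bismark 0.20.0 on GRCm38 are named in the submitters' processing notes. The deposited tables give, per the file headers, a read count (coverage) and the percent of reads showing C for each CpG cytosine and strand, none under 10 reads. Methylated counts were percent times coverage. Of all cytosines, 2210988 were listed in every library. Coverage summed over all cytosines listed in a library was 144461049 to 168477518, where a read counts once for each cytosine it covers. Reads are not independent molecules. The intervals count tiles as if independent, though low tiles often had low neighbours, so they cover counting error only. Bisulfite conversion controls and duplicate removal are not given in the sources used here.

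Counts per tile were fitted with a quasi-binomial model with group as its term, the dispersion moderated by squeezeVar of limma 3.58.1 (R 4.3.3) and held at 1 or above, with Benjamini-Hochberg adjustment over all autosomal tiles of at least 3 cytosines, with calls at 10 points or more and an adjusted p under 0.05. limma on logit levels (pseudocount 1), a replicate block and other filters were alternatives. Gene names, starts and promoter sequences are RefSeq GRCm38.p6. Named tiles are those nearest the 20% limit, the smallest p-values with separate groups, the highest CSDS means, the widest Control ranges, the deepest, the largest isolated dips and the deepest per gene list, taken from these sets. A tile carries the name of the gene it lies in or, if none, of the nearest. The tiles and gene lists were chosen with earlier results of these data known. The analyses of CCGG cytosines and the printed promoters were chosen after seeing the data.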

Additional observations from a re-analysis of the deposited data

How the results depend on the processing

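The number of low tiles was 1115 with a Control limit of 10%, 7324 after scaling by the mitochondrial share and 2736 with each cytosine weighted equally. Of the 4573 tiles, 2998 were among the 6308 found at a coverage minimum of 20 and 2709 among the 2736. The median difference was 0.0158 points after choosing and comparing tiles on scaled levels. The share under 20% in all CSDS libraries was 88.1% at a coverage minimum of 20 and 95.8% with the limit of 10%. It was 84.2% after scaling, and 80.4% and 72.9% for tiles chosen by the mean of all 6 and of the CSDS libraries. Without single Control libraries it was 81.1% to 81.7%. Leaving out a CSDS library asks this of fewer libraries, so on the same tiles the share cannot fall. It was then 94.4% without CSDS replicate 1, 83.8% without replicate 2 and 84.0% without replicate 3. The share near a gene end was 48.2% with the limit of 10%, 37.8% by the CSDS mean, 35.02% after scaling, 36.4% with equal weights and 61.3% within 5 kb. Isolated tiles made up 0.269% with the limit of 10%, 0.731% with equal weights and 0.153% with flanks at 80% or above. Strands differed by over 20 points at 16.9% of CpGs with at least 20 reads on each. Tiles called ranged from 0 to 2279 on leaving out single libraries, with 2279 without CSDS replicate 1. The cause of these changes was not tested. At 3 to 6 cytosines and a median summed coverage of 242.5, a tile's level is coarser than that of a dense tile.

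The labels do not say whether replicate numbers pair the samples. Deviations of same-numbered libraries from their group mean correlated at −0.0422, −0.0529 and 0.00941, and those of differently numbered ones at −0.0138 to 0.0534. These values cannot exclude a shared batch, since a shift of a whole library need not show in them. With the replicate block 0 tiles were called. An unadjusted p under 0.05 in that quasi-binomial F test was seen at 316 low tiles (6.91%), against 14.8% of all tiles. Without the block it was seen at 420 low tiles (9.18%), against 15.7% of all tiles.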
